A study of Mus musculus with 2 samples.

Results

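The genes described here encode the subunits of AMPA and NMDA receptors: Gria1, Gria2, Gria3 and Gria4 for AMPA receptors, and Grin1, Grin2a, Grin2b, Grin2c, Grin2d and Grin3a for NMDA receptors. They were taken by name, as 10 of the 32285 gene rows present in both count tables, as the subunit genes of these receptors and not by a threshold on their values. Nuclei of mouse thalamus were profiled by single-nucleus RNA-seq after cortical ablation injury (CAI), in which part of the sensory and motor cortex on one side is removed by surgery, or after a sham operation. Each group was 1 library, for which the nuclei of 4 mice were pooled (C57BL/6J females, 3 months old). The thalamus of the operated side was taken on day 21 after surgery. Sham and injury mice shared strain, sex, age and day, and no transgene is named for either group. Nuclei in a pool carried no tag for the mouse they came from, so each group had 1 sample and none of the differences between groups could be tested. All intervals are at 95%, cover counting error only and leave out the spread between mice.

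AMPA and NMDA receptors are glutamate-gated cation channels built of 4 subunits, and they carry most fast excitatory transmission in the brain. The GluA2 subunit (Gria2) keeps calcium out of AMPA receptors once its messenger RNA has been edited. NMDA receptors need the obligatory subunit GluN1 (Grin1), and their GluN2 subunits (Grin2a to Grin2d) set how long the channel stays open, whereas GluN3A (Grin3a) lowers its calcium permeability and its block by magnesium. Thalamic relay neurons receive glutamatergic input from sensory pathways and from the cortex, reticular neurons of the thalamus inhibit them, and oligodendrocyte precursors are glia known to receive synapses from neurons.

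A codon of the pore-lining loop is printed for 7 of the subunits because the families differ there and because it carries the edited base of Gria2. Each line holds 51 coding bases from a GENCODE M21 transcript of GRCm38, 5′ to 3′ on the coding strand, with the codon of the pore position in capitals. In Gria2 it is the codon changed by RNA editing, and in NMDA subunits it is the site known to set magnesium block.
Gria1: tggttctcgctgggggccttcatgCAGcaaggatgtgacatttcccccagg
Gria2: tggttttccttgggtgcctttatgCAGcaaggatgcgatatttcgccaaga
Gria3: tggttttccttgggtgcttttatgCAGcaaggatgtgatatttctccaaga
Gria4: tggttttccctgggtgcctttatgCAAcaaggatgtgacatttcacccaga
Grin1: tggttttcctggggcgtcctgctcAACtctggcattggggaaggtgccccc
Grin2a: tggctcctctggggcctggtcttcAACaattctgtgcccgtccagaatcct
Grin3a: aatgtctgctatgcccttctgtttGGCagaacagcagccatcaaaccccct

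The capitals read as glutamine codons in Gria1 to Gria4, asparagine codons in Grin1 and Grin2a, and a glycine codon in Grin3a. In GRCm38 the codon lies at chr11:57243094-57243096 (plus strand) in Gria1, chr3:80706911-80706913 (minus) in Gria2, chrX:41610265-41610267 (plus) in Gria3 and chr9:4464137-4464139 (minus) in Gria4. On the minus strand it lies at chr2:25297386-25297388 in Grin1, chr16:9653561-9653563 in Grin2a and chr4:49770584-49770586 in Grin3a. All are coding exons, and the AMPA and Grin1 stretches run across an exon boundary, exons 11 and 12 of 16 in Gria2. Pairs of AMPA stretches shared 41 to 48 of 51 bases, whereas Grin3a shared 17 with Grin1 and 23 with Grin2a. Grin1 and Grin2a also shared only 23. The Grin3a codon was placed by the distance that the other subunits share, since its surrounding letters differ. UMI counts per gene do not show whether the Gria2 codon was edited, and give no splice form.

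In sham 137850696 UMIs were spread over 16390 barcodes, and in injury 180106314 UMIs over 21828 barcodes, of which 101 occurred in both libraries. After filtering, 16373 sham and 21777 injury nuclei were kept, with medians of 7190 and 6810 UMIs. Glutamatergic neurons numbered 11707 sham and 12188 injury nuclei in 17 clusters, and GABAergic neurons 1977 and 3311 nuclei in 2 clusters. Oligodendrocyte precursors numbered 109 and 165 nuclei with medians of 2616 and 2773 UMIs. All 7 precursor markers, among them Pdgfra and Cspg4, were detected in both libraries, and summed to 5081 and 5249 CPM (UMIs of the genes per 1000000 UMIs of the class). Neuron clusters N21, N23 and N26 were kept out of the classes because sham held 2, 0 and 0 of their nuclei against 380, 281 and 209 in injury, and cluster N20 (196 and 192 nuclei) because a marker of another cell type led it.

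Some UMIs in every droplet come from RNA freed from other nuclei, and its share was estimated from markers that the class should lack. The summed CPM of such markers in a class, as a percentage of their CPM in the whole library, was 17.1% in sham and 12.6% in injury glutamatergic neurons, 21.0% and 16.3% in GABAergic neurons, and 12.3% and 11.1% in oligodendrocyte precursors. Library-wide levels also differed, with Gria1 at 640.1 CPM in sham and 923 CPM in injury and Grin2a at 697 and 895 CPM.

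Among AMPA subunit genes, Gria4 took the most UMIs in both neuron classes and in oligodendrocyte precursors, in both libraries, a count that depends on gene length as well as on the level. In glutamatergic neurons the level of Gria4 was 1265 CPM in sham and 1202 CPM in injury, in GABAergic neurons 1772 and 1719 CPM, and in precursors 1647 and 1441 CPM. GluA4 is the subunit with the fastest kinetics. The level of Gria2 was 772 and 768 CPM in glutamatergic neurons, 939.8 and 1044 CPM in GABAergic ones and 1186 and 1107 CPM in precursors, so glutamatergic neurons were lower than the other classes named here in both libraries. Gria3 followed the same order, with 404 and 429 CPM in glutamatergic neurons, 605 and 595 CPM in GABAergic ones and 688 and 698 CPM in precursors. Gria1, whose subunit is best known for activity-dependent insertion into synapses, stood at 652 and 781 CPM in glutamatergic neurons and 602 and 731 CPM in GABAergic neurons. The ranges of these classes over the libraries overlapped for Gria1. Precursors had 103 CPM of Gria1 in sham (interval 70.7 to 144) and 157 CPM in injury (125 to 196), below both neuron classes in both libraries.

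Among NMDA subunit genes, Grin1 stood at 286 and 298 CPM in glutamatergic neurons and at 282 and 286 CPM in GABAergic neurons. Grin2b, which encodes the subunit that prevails early in development, reached 1322 and 1458 CPM in glutamatergic and 849.5 and 970.1 CPM in GABAergic neurons. Its counterpart Grin2a, which rises with synapse maturation, reached 769 and 937 CPM in glutamatergic neurons but 297 and 354 CPM in GABAergic neurons. Both were higher in glutamatergic neurons in each library. Grin3a was at 259 and 259 CPM in glutamatergic and at 294 and 287 CPM in GABAergic neurons, whereas precursors had 569.7 and 596 CPM. Grin2c was at 31.0 and 35.8 CPM in glutamatergic and at 15.2 and 16.5 CPM in GABAergic neurons, and Grin2d at 49.5 and 48.1 CPM and at 48.6 and 41.2 CPM.

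**Figure D1:**
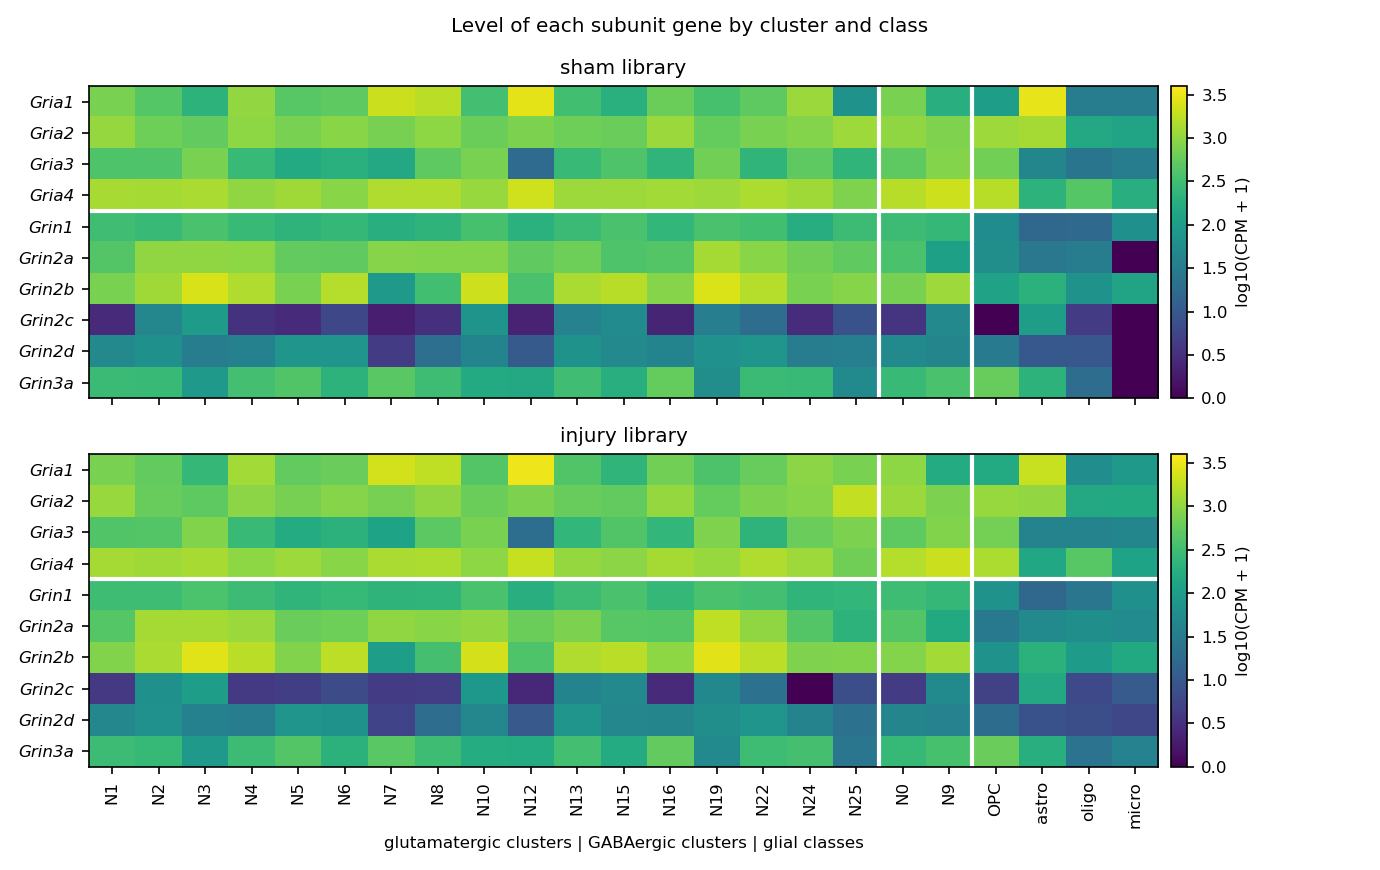
Level of each subunit gene, as log10(CPM + 1) in colour, with genes in rows and the neuron clusters, then the glial classes (OPC, oligodendrocyte precursors; astro, astrocytes; oligo, oligodendrocytes; micro, microglia), in columns, for the sham library above and the injury library below. Apart from cluster N25 (Gria1 at 66.9 and 754 CPM), most rows look alike in both libraries, with Gria1 brightest in neuron clusters N7, N8 and N12 and in astrocytes, Grin2b dark in N7, and Grin3a bright in oligodendrocyte precursors.

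Levels of different genes were ranked per kb of gene, introns included, since shares and ratios of UMIs favour long genes. On this scale of CPM per kb, Gria2 led the AMPA genes in glutamatergic neurons (6.36 in sham, 6.32 in injury), GABAergic neurons (7.74 and 8.60) and precursors (9.77 and 9.12). Gria4 came next in each, with 3.34 and 3.18 CPM per kb in glutamatergic neurons. Grin1, a short gene, led the NMDA genes in both neuron classes, at 10.2 and 10.7 CPM per kb in glutamatergic and 10.1 and 10.2 CPM per kb in GABAergic neurons. In precursors Grin3a led, at 3.09 and 3.24 CPM per kb, ahead of Grin1 at 2.001 and 2.46 CPM per kb. How length enters a nuclear 3′ count is not known for these tables, and the order changed with the scale: of 126 pairs of subunits over 3 classes and 2 libraries, 95 kept their order per kb of exon and 89 with UMIs as counted. The leaders changed too. Per kb of exon, Gria4 led Gria2 in all 3 classes, with 201 and 191 against 49.7 and 49.4 CPM per kb in glutamatergic neurons. Grin2b led Grin1 in both neuron classes, with 53.2 and 58.7 against 29.5 and 30.8 in glutamatergic ones. Grin3a still led in precursors.

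The mix of a family is the share of its UMIs that each gene took. In glutamatergic neurons Gria4 took 40.9% of AMPA UMIs in sham (interval 40.7 to 41.1) and 37.8% in injury (37.6 to 37.9), and Gria1 took 21.1% (20.9 to 21.2) and 24.6% (24.4 to 24.7). In GABAergic neurons Gria4 took 45.2% (44.8 to 45.6) and 42.04% (41.7 to 42.3), and Gria1 took 15.4% (15.1 to 15.7) and 17.9% (17.6 to 18.1). A lower share for Gria1 and a higher one for Gria4 in pooled GABAergic neurons thus appeared in both libraries. Cluster N0, which held most GABAergic nuclei, had 39954 AMPA UMIs in sham and 70949 in injury. Of these Gria4 took 16769 and 26774, near its share in glutamatergic neurons. Gria1 took 7819 and 16247, nearer its glutamatergic share than the class values were. The class difference thus came mostly from the other GABAergic cluster, N9. The distance between the mixes of 2 classes, in percentage points that would have to move from one gene to another, was 6.70 in sham and 6.69 in injury for AMPA genes. It was 13.07 in each library for NMDA genes. With clusters at equal weight the distances were 14.3 for AMPA and 15.5 for NMDA genes, so most of the gap between the families was lost. Within a class, the distance from sham to injury was 3.94 points in glutamatergic and 4.05 points in GABAergic neurons for AMPA genes, and 2.58 and 3.55 points for NMDA genes.

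The NMDA mix of the neuron classes differed in Grin2a, Grin3a and Grin1. Grin2a took 28.3% (interval 28.1 to 28.5) and 30.8% (30.7 to 31.0) of NMDA UMIs in glutamatergic neurons against 16.6% (16.2 to 17.1) and 18.1% (17.8 to 18.5) in GABAergic neurons. Grin3a took 9.52% and 8.54% in glutamatergic against 16.5% and 14.7% in GABAergic neurons, and Grin1 took 10.5% and 9.83% against 15.8% and 14.6%. Grin2b took a like share in both neuron classes, 48.7% and 48.0% in glutamatergic and 47.6% and 49.6% in GABAergic neurons. All AMPA genes together reached 3093 and 3180 CPM in glutamatergic and 3919 and 4089 CPM in GABAergic neurons. All NMDA genes together reached 2717 and 3036 CPM in glutamatergic and 1786 and 1955 CPM in GABAergic neurons, so the ratio of AMPA to NMDA UMIs was 1.14 and 1.05 in the former and 2.19 and 2.09 in the latter.

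**Figure D2:**
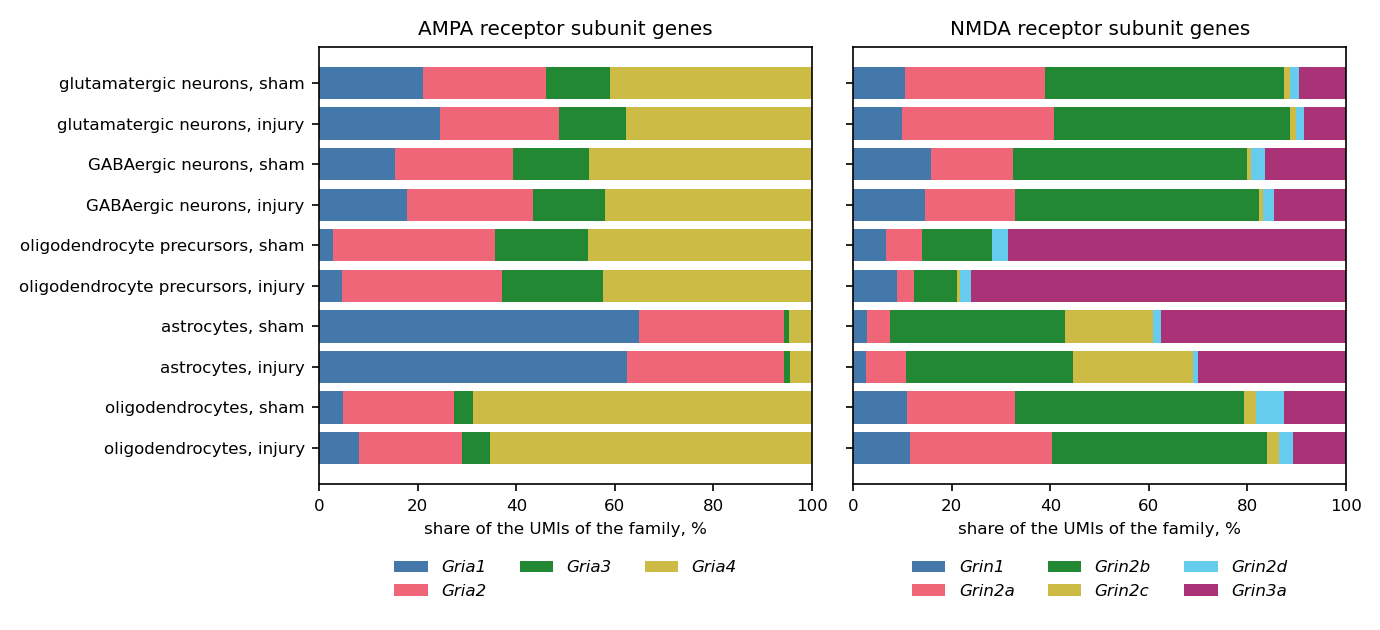
Share of the UMIs of each family (horizontal axis, percent) taken by each subunit gene, for AMPA genes on the left and NMDA genes on the right, with a bar for each class in each library. Grin3a fills 68.5% and 76.1% of the NMDA bar of oligodendrocyte precursors in sham and injury, against 9.52% and 8.54% in glutamatergic neurons.

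Levels also varied between the neuron clusters that are pooled in the class values. Gria1 ranged from 174 CPM, the mean of both libraries, in cluster N9 (thalamic reticular-like, with Six3 and Pvalb) to 3001 CPM in cluster N12 (medial habenula-like, with Pde11a). Both medial habenula-like clusters were high, N12 with 2821 CPM in sham and 3182 CPM in injury and N7 (with Chat) with 2021 and 2270 CPM. Cluster N8 (with Ptprq) followed at 1687 and 1797 CPM. These 3 clusters stood above the other 16 compared in both libraries. The median over the 19 clusters was 547 CPM. In the order of clusters by Gria1 level, 10 of 18 neighbouring pairs overlapped over the libraries.

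The other AMPA genes had their own orders. Gria3 was at 17.2 CPM in sham and 18.96 CPM in injury in N12, where Gria1 was highest. It reached 859 and 826 CPM in N9, where Gria1 was lowest as the mean of the libraries. Gria4 was highest in N9, at 2132 and 2060 CPM, and N12, at 2152 and 1905 CPM, which overlapped. Gria2 varied less, with means of the libraries from 520.2 CPM in cluster N3 (thalamic relay-like, with Prkcd) to 1521 CPM in cluster N25 (with Ebf2 and Corin). Measured as the log2 range of the library means over clusters, a range at least as wide was found in 15.5% of 9260 genes for Gria1, 6.44% for Gria3, 41.4% for Gria2 and 42.01% for Gria4. Neighbouring pairs in the order overlapped in 8 of 18 cases for Gria2, 10 for Gria3 and 13 for Gria4.

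Grin2b showed the converse of Gria1 in the medial habenula-like nuclei. Cluster N7 had 87.3 CPM of Grin2b in sham and 105 CPM in injury, below all other clusters compared in both libraries. Cluster N19 (with Fgf10) had 2503 and 2715 CPM and N3 had 2424 and 2639 CPM. Grin2a was lowest in N9, at 111 and 154 CPM, and highest in N19, at 1288 and 1820 CPM. The share of Grin2a in the UMIs of Grin2a and Grin2b together is a simple gauge of this balance. It was 91.1% in sham (interval 89.97 to 92.1) and 90.7% in injury (89.9 to 91.4) in N7, 72.3% (71.2 to 73.4) and 72.6% (71.4 to 73.6) in N8, and 59.1% (57.0 to 61.2) and 59.8% (57.9 to 61.7) in N12. Relay-like N3 had 29.5% and 32.8%, and reticular-like N9 had 8.51% (7.76 to 9.31) and 10.9% (10.2 to 11.5). N7 and N9 thus stood at opposite ends. The freed-RNA estimate of a whole class was above the measured level in some clusters, as for Gria3 in N12 (17.2 and 18.96 CPM against 72.8 and 58.3 CPM), so it overstates freed RNA there.

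Grin2c, the subunit gene known from cerebellar granule cells and thalamus, was concentrated in a few clusters. It reached 94.3 and 103 CPM in relay-like N3, 71.3 and 83.0 CPM in N10 (with Adamts9), 45.7 and 63.2 CPM in N2 (with Pth2r), 53.9 and 48.3 CPM in N15 (with Npsr1) and 48.4 and 49.6 CPM in N9, and its median over the 19 clusters was 5.39 CPM. N3 and N10 did not overlap with each other or with the clusters below them. Grin3a was highest in N16 (with Glra3), at 568 and 550 CPM, and in N7, at 474 and 471 CPM, and low in N3 at 85.5 and 85.4 CPM. Grin2d ranged from 3.85 CPM in N7 to 74.9 CPM in N22 (with Hcrtr2), as means of the libraries. Grin1 varied least of the 10 genes, from 190.4 CPM in N12 to 372 CPM in N3, and 64.8% of 9260 genes had a range at least as wide. In the order of clusters, neighbouring pairs overlapped in 15 of 18 cases for Grin1 and Grin2a, 10 for Grin2b, 11 for Grin2c, 12 for Grin2d and 7 for Grin3a.

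The ratio of AMPA to NMDA UMIs followed these differences. It was 4.61 in sham and 4.27 in injury in N12, 2.67 and 2.48 in N7, and 2.70 and 2.60 in N8. In relay-like N3 it was 0.725 and 0.643, and in N19 0.647 and 0.566. The UMIs of the same genes were set against each other in every cluster. In both libraries the ratio was thus higher in medial habenula-like N7 and N12, and in N8, than in the relay-like cluster. Over the 19 clusters, levels of a gene ranked alike in both libraries, with Spearman correlations from 0.865 for Gria3 to 0.982 for Gria2. These points come from the same 2 libraries and the clusters were built on both, so the correlation is a description.

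Oligodendrocyte precursors had a mix of AMPA genes with little Gria1 and a mix of NMDA genes led by Grin3a. Their AMPA UMIs were 45.4% Gria4 in sham (interval 42.6 to 48.4) and 42.3% in injury (40.004 to 44.7), 32.7% and 32.5% Gria2, 18.99% and 20.5% Gria3, and 2.84% and 4.62% Gria1. Grin3a made up 68.5% of their NMDA UMIs in sham (62.6 to 74.1) and 76.1% in injury (71.6 to 80.2). Per kb of gene, with freed RNA not taken out, its share was 50.8% and 49.7%, and that of Grin1 32.8% and 37.8%. The distance of their mix from that of glutamatergic neurons was 18.2 points in sham and 19.9 points in injury for AMPA genes, and 60.6 and 68.3 points for NMDA genes. From sham to injury within precursors it was 3.31 and 10.1 points. All NMDA genes together reached 831 and 782 CPM, and AMPA genes 3624 and 3403 CPM, a ratio of 4.36 and 4.35.

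For precursors the level that freed RNA alone would give, the estimated share times the library-wide level, was set beside each gene. Grin2b had 118 CPM in sham (interval 83.7 to 162) and 68.8 CPM in injury (47.9 to 95.7), against 151 and 148 CPM from freed RNA. Grin2a had 59.2 and 27.5 CPM, against 86.0 and 98.9 CPM. Both genes were thus at or below that level. In injury the intervals of both (15.0 to 46.2 CPM for Grin2a) lay below it, so the estimate overstates freed RNA for them there. Whether either gene was expressed above background cannot be told from it. Grin3a, at 569.7 and 596 CPM, stood against 31.8 and 27.0 CPM, Gria2 against 96.5 and 95.3 CPM, Gria3 against 52.4 and 51.1 CPM, and Gria4 against 163 and 135 CPM, so all 4 were far above it. Gria1, at 103 and 157 CPM, stood against 79.0 and 102 CPM, and Grin1, at 56.0 and 68.8 CPM, against 34.6 and 31.7 CPM. In sham the freed-RNA level lay within the intervals of Gria1 (70.7 to 144 CPM) and Grin1 (33.2 to 88.6 CPM). In injury it lay below those of Gria1 (125 to 196 CPM) and Grin1 (47.9 to 95.7 CPM). Grin2d had 9 UMIs in each library, at 28.0 and 17.7 CPM, against 5.93 and 4.81 CPM. Grin2c had 0 UMIs in sham precursors, for which the exact interval reaches up to 11.5 CPM, and 2 UMIs in injury.

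The share of nuclei with a UMI gave the same picture. Grin3a was seen in 69.7% of sham and 71.5% of injury precursors at median depths of 2616 and 2773 UMIs. In oligodendrocytes it was seen in 2.89% and 4.10% of nuclei at median depths of 1552 and 1656 UMIs. In astrocytes it was seen in 28.7% and 30.3% of nuclei at median depths of 1892 and 2549 UMIs. With each nucleus thinned to 2000 UMIs, which left out 33 and 45 precursors and 714 and 1510 oligodendrocytes, the shares were 65.8% (interval 54.0 to 76.3) and 62.5% (53.2 to 71.2) in precursors and 3.78% (1.90 to 6.66) and 3.71% (2.52 to 5.26) in oligodendrocytes. Thinned glutamatergic neurons, of which 246 and 244 were left out, had 37.0% (36.1 to 37.8) and 35.7% (34.9 to 36.6). Grin3a was therefore in a larger share of precursors than of glutamatergic neurons at equal depth in both libraries. For Grin2b the order was opposite, 15.8% (8.43 to 26.0) and 13.3% (7.82 to 20.7) of thinned precursors against 78.9% (78.1 to 79.6) and 79.4% (78.7 to 80.1) of thinned glutamatergic neurons.

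**Figure D3:**
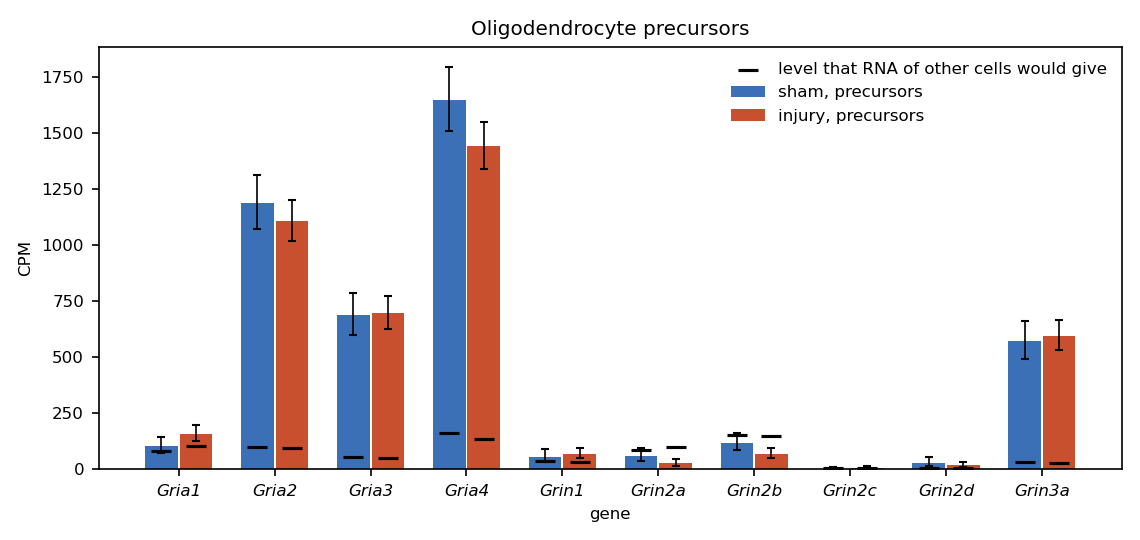
Level of each subunit gene in oligodendrocyte precursors (vertical axis, CPM) in the sham and injury libraries, as bars with 95% Poisson intervals, and the level expected from freed RNA as a short black line on each. Gria2, Gria3, Gria4 and Grin3a rise far above the freed-RNA level in both libraries, whereas Grin2a and Grin2b do not exceed it. In injury the intervals of Grin2a and Grin2b lie below that level, so it overstates freed RNA for them.

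Among the other glia, astrocytes (209 sham and 509 injury nuclei) had the highest Gria1 of all 6 classes, at 2926 and 2007 CPM, beside Gria2 at 1322 and 1025 CPM. Their Gria3 was at 44.1 CPM (interval 26.9 to 68.1) and 39.1 CPM (29.6 to 50.8). The freed-RNA level of Gria3, 29.1 and 35.4 CPM, lay within these intervals. Their Gria4 was at 212 and 142 CPM, against 90.4 and 93.4 CPM from freed RNA. Grin2c reached 101 CPM (interval 74.2 to 135) and 146 CPM (127 to 167), above glutamatergic neurons in both libraries. Oligodendrocytes (1005 and 2318 nuclei) had 449 and 463 CPM of Gria4 and 148 and 148 CPM of Gria2. These were the genes whose intervals lay above the freed-RNA level in oligodendrocytes in both libraries. In microglia (27 and 154 nuclei) no gene exceeded 187 CPM in sham or 155 CPM in injury. The sham value, of Gria4, rested on 6 UMIs (interval 68.7 to 408 CPM), beside 143 CPM from freed RNA. In injury Gria2 and Grin2b, both at 155 CPM, stood against 158 and 245 CPM from freed RNA.

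Injury was then compared with sham gene by gene, as the log2 ratio of CPM in the injury library over the sham library. A gene was called past the fold at 0.25 on this scale in either direction, and had to have 50 UMIs in both libraries together. In glutamatergic neurons 2 of 10 subunit genes were higher past the fold and none was lower. Of all 19397 genes tested there, 26.7% were past the fold in either direction and 14.3% were higher. The ratio of Grin2a was 0.28 (interval 0.27 to 0.30) and that of Gria1 was 0.26 (0.25 to 0.28). Both therefore rose by the rule, but the interval of Gria1 included the limit of 0.25. The make-up of the class also shifted, since N7, high in Gria1, held 581 sham and 928 injury nuclei. N8 and N12, also high in Gria1, went the other way, with 768 and 699 nuclei and with 496 and 475. The part of these shifts in the ratio of Gria1 was not tested. Grin2c had a ratio of 0.21 (0.14 to 0.28) and Grin2b of 0.14 (0.13 to 0.15), and the remaining 6 genes lay between -0.07 (Gria4) and 0.09 (Gria3).

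In GABAergic neurons the same 2 genes were past the fold, Gria1 with a ratio of 0.28 (interval 0.24 to 0.32) and Grin2a with 0.25 (0.20 to 0.31), and none was lower. Of all 15385 genes tested in this class, 29.6% were past the fold and 16.9% were higher. Grin2b had a ratio of 0.19 (0.16 to 0.22), Gria2 of 0.15 (0.12 to 0.18) and Grin2d of -0.24 (-0.38 to -0.10), which came past the fold in 5 of 11 alternative settings, at down to -0.35. Medians over AMPA genes were 0.04 in glutamatergic and 0.06 in GABAergic neurons, and over NMDA genes 0.10 and 0.07. Medians over all genes tested were 0.01 in both classes. The pooled value of Gria1 hid opposite signs, since cluster N0 (with Pax6 and Gata3), which held most GABAergic nuclei, had 0.33 (0.29 to 0.37) and N9 had -0.22 (-0.36 to -0.09). Grin2a was above 0 in both, at 0.24 (0.18 to 0.29) in N0 and 0.48 (0.32 to 0.64) in N9. In N9 Grin2a stood at 111 and 154 CPM, beside 146 CPM estimated from freed RNA for GABAergic neurons in each library. Gria1 in N9, at 187 and 160.4 CPM, stood beside an estimate of 134 and 150.5 CPM.

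The clusters held almost only by the injury library were high in Gria1, and 2 of them in Grin2a, and N23 was cortical-like by its markers. Gria1 stood at 3481 CPM in N21, 4021 CPM in N23 and 3501 CPM in N26, and Grin2a at 673 CPM in N21, 4061 CPM in N23 and 4506 CPM in N26. With the estimated freed RNA taken out of each class, the ratio of Gria1 was 0.22 in glutamatergic and 0.23 in GABAergic neurons, under the fold, and that of Grin2a was 0.27 and 0.38. With clusters of under 50 nuclei in a library added to the classes, the ratio of Gria1 was 0.48 in glutamatergic and 0.90 in GABAergic neurons, and that of Grin2a 0.48 and 0.43. The part of freed RNA in the values as counted was not tested further.

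**Figure D4:**
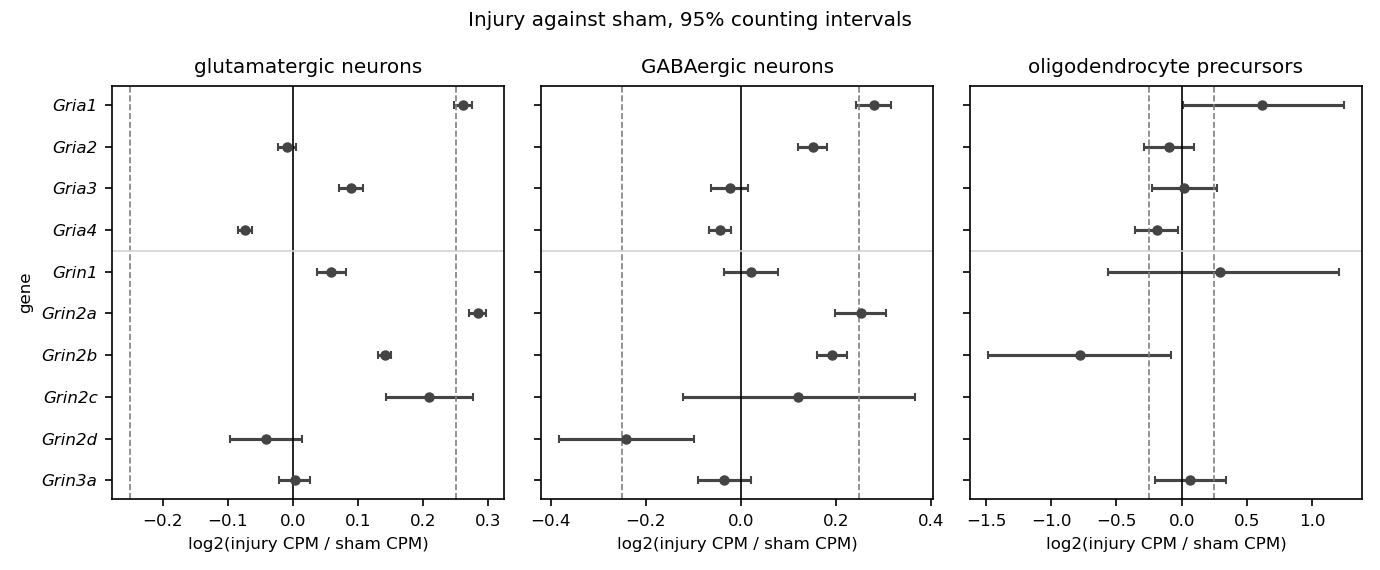
Log2 ratio of injury over sham CPM (horizontal axis) for each subunit gene with 50 UMIs or more, in a panel each for glutamatergic neurons, GABAergic neurons and oligodendrocyte precursors, with 95% counting intervals and dashed lines at the fold of 0.25 (each panel has its own scale). Gria1 and Grin2a lie at or past the upper line in both neuron classes, at 0.26 and 0.28 and at 0.28 and 0.25, and the intervals of precursors are much wider.

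Cluster by cluster, 179 pairs of a subunit gene and a cluster had enough UMIs, of which 26 (14.5%) were higher and 7 (3.91%) lower past the fold. Over 207681 such pairs of all genes, 15.6% were higher and 18.1% lower. The higher share of the subunit genes was near the share over all genes, and their lower share was under it. The genes of this background, like those of the classes, were not matched to the subunit genes by level. Counting error is wider for genes with few UMIs, and its part in these differences was not tested. Clusters share their libraries and receive the same freed RNA, so they are not replicates.

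Gria1 was above 0 in 17 of 19 clusters and past the fold in 8, with a median ratio of 0.23. The 8 were N0, N2, N3, N4, N5, N10, N13 and N25, and with the exception of N25 their ratios ran from 0.25 in N4 to 0.37 in N13. It was lower past the fold in N24 (with Oxt and Avp), at -0.28. Grin2a was above 0 in 17 clusters and past the fold in 6, with a median of 0.20. Its ratio was 0.50 (interval 0.43 to 0.57) in N19, 0.37 in N2, 0.35 in relay-like N3, 0.29 in N13 and 0.26 in N6, beside the 0.48 of N9. Grin2b was above 0 in 18 clusters with a median of 0.15 and past the fold in 1, N7 at 0.26, where its 87.3 and 105 CPM were under the 209.9 and 169 CPM estimated from freed RNA for glutamatergic neurons. Gria4 was at or below 0 in 17 clusters with a median of -0.05, and its only value past the fold was -0.31 (-0.38 to -0.23) in N15. Gria2 and Grin3a had medians of -0.01 each. Grin2c was higher past the fold in 6 of the 12 clusters where it had 50 UMIs, and only in 2 of these, N2 and N19, did its interval lie above 0.

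Clusters N24 and N25 were the smallest compared, with 73 and 71 sham and 176 and 173 injury nuclei, and 48.9% of the genes tested in N24 and 63.0% of those in N25 were past the fold. In N25, Gria1 rose from 66.9 CPM (19 UMIs) in sham to 754 CPM (596 UMIs) in injury, a ratio of 3.49 (interval 2.84 to 4.24). Gria3 rose from 225 to 773 CPM with a ratio of 1.78 (1.40 to 2.17), Gria2 from 1166 to 1876 CPM with 0.69 (0.51 to 0.86), and Grin2a fell from 521 to 214 CPM with -1.29 (-1.61 to -0.96). In N24, Grin2a fell from 656 to 438 CPM with a ratio of -0.58 (-0.78 to -0.38). Without both clusters, 20 of 163 pairs (12.3%) were higher and 3 (1.84%) lower. Gria1 was then past the fold in 7 of 17 clusters and lower in none, and Grin2a in 6 and none.

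**Figure D5:**
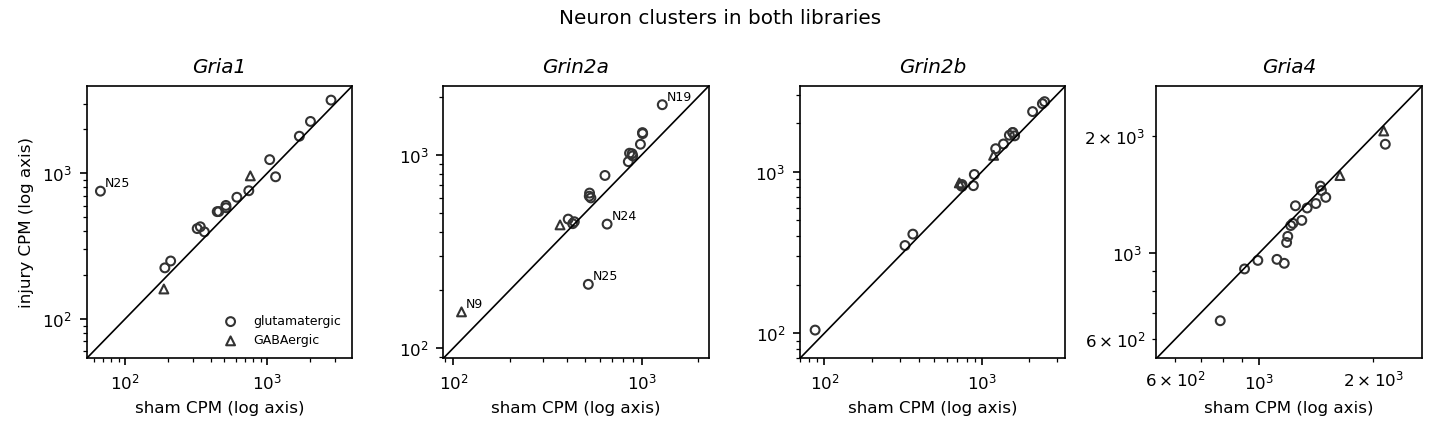
Level of Gria1, Grin2a, Grin2b and Gria4 in each of 19 neuron clusters, with sham CPM on the horizontal and injury CPM on the vertical axis, both logarithmic, circles for glutamatergic and triangles for GABAergic clusters, and the line of equal levels. Gria1 and Grin2a lie above the line in 17 clusters each and Grin2b in 18, and cluster N25 stands off the line for Gria1 at 66.9 against 754 CPM.

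In oligodendrocyte precursors 7 of 10 subunit genes had enough UMIs, of which 2 were higher and 1 was lower past the fold, beside 46.3% of all 3020 genes tested in either direction. The small number of nuclei made this class imprecise. Gria1 had 33 UMIs in sham and 80 in injury and a ratio of 0.61 (interval 0.01 to 1.246), which was -0.06 once called doublets were left out. Grin1 had 18 and 35 UMIs and a ratio of 0.30 (-0.56 to 1.20), and Grin2b had 38 and 35 UMIs and -0.78 (-1.49 to -0.08), which was 0.32 when the libraries were clustered without integration. The genes with the most UMIs in the class were not past the fold. Gria3 had a ratio of 0.02 (-0.23 to 0.27), Grin3a of 0.06 (-0.21 to 0.34), Gria2 of -0.10 (-0.29 to 0.09) and Gria4 of -0.19 (-0.36 to -0.03). Differences of Grin3a within that interval were not detectable at this depth.

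In astrocytes 2 of 8 genes were higher and 3 lower, beside 52.4% of all 5901 genes in either direction. Gria4 had a ratio of -0.58 (interval -0.93 to -0.21), Gria1 of -0.54 (-0.64 to -0.45) and Gria2 of -0.37 (-0.51 to -0.23), and Grin2c of 0.53 (0.06 to 1.02). A cluster of 92 astrocytes with Gfap and A2m, present in the injury library alone, had 330.3 CPM of Gria1. Without it the ratio of Gria1 was -0.20 and that of Gria2 -0.24, both under the fold. Gria4 at -0.56 and Grin2c at 0.58 stayed past the fold, and Gria3, at -0.17 with this cluster, was at -0.29 (-1.11 to 0.56). Gria4 stood at 212 and 142 CPM, beside 90.4 and 93.4 CPM from freed RNA, whose part in its ratio was not tested. Grin2a was also past the fold, at 0.91, with 12 and 71 UMIs and levels below those from freed RNA in both libraries. In oligodendrocytes 6 of 8 genes were higher and none lower, beside 44.2% of all 9530 genes in either direction and 19.7% higher. The clusters of this class also shifted, with O0 holding 28 sham and 1298 injury nuclei and O3 holding 496 and 87. The 6 higher genes, Gria1, Gria3, Grin1, Grin2a, Grin2b and Grin3a, were all below the freed-RNA level in both libraries. The 5 neuronal markers summed to 1282 CPM in sham and 1529 CPM in injury oligodendrocytes, and their part in these ratios was not tested. Gria2 and Gria4, the AMPA genes above that level, had ratios of 0.00 (-0.21 to 0.21) and 0.04 (-0.08 to 0.16).

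Partners of the receptors were taken as 4 lists: 15 AMPA auxiliary subunits, 8 genes of AMPA receptor trafficking and RNA editing, 8 other ionotropic subunit genes and 10 NMDA receptor partners and co-agonist genes. In glutamatergic neurons 3 of these 41 genes were higher and 3 lower past the fold, and in GABAergic neurons 1 of 38 tested was higher and 1 lower, beside 26.7% and 29.6% of all genes past the fold in either direction. The medians over the lists together were 0.06 and 0.03. Src, a tyrosine kinase that phosphorylates NMDA receptors, rose in both, from 44.9 to 59.9 CPM with a ratio of 0.42 (interval 0.36 to 0.47) and from 26.0 to 36.2 CPM with 0.48 (0.30 to 0.66). Cnih2, an AMPA auxiliary subunit, fell in both, from 9.61 to 7.01 CPM with -0.45 (-0.59 to -0.32) and from 8.16 to 5.99 CPM with -0.45 (-0.81 to -0.08). In glutamatergic neurons Cacng2 (stargazin) rose from 120 to 146 CPM with a ratio of 0.29 (0.26 to 0.33). Grik4, a kainate receptor subunit gene named after its values were seen, rose from 119 to 145 CPM with 0.28. Dao and Shisa8 had ratios of -0.45 and -0.33 on 50 and 65 UMIs in all, with intervals that include 0.

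The 2 genes of each list with the most UMIs lay near 0 in glutamatergic neurons. They were Adarb2 (1603 and 1638 CPM) and Grip1 (927 and 946 CPM), Grik2 (1568 and 1497 CPM) and Grik1 (378 and 362 CPM), Shisa9 (646 and 703 CPM) and Shisa6 (289 and 301 CPM), and Camk2d (439 and 409 CPM) and Camk2a (294 and 329 CPM). Their ratios ran from -0.10 for Camk2d to 0.16 for Camk2a. In GABAergic neurons Grik2 was at 2509 and 2322 CPM, Grip1 at 1339 and 1530 CPM, Adarb2 at 846 and 751 CPM, Grik1 at 512 and 545 CPM, Camk2d at 429 and 394 CPM, Shisa9 at 351 and 387 CPM, Camk2a at 201 and 238 CPM and Cacng2 at 129 and 142 CPM. Grip1, a scaffold protein that binds GluA2, and Grik2, a kainate receptor subunit gene, were thus higher in GABAergic than in glutamatergic neurons in both libraries, and Adarb2 was lower.

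In oligodendrocyte precursors 24 partners had enough UMIs, of which 3 were higher and 6 lower, beside 46.3% of all genes in either direction, with a median of -0.09. Ptpn5, a phosphatase of NMDA receptors, fell from 93.4 to 45.2 CPM with a ratio of -1.05 (interval -1.90 to -0.21). Cacng7 had 0.75 (-0.06 to 1.62), Cpt1c -0.61 (-1.41 to 0.19), Nsf -0.35 (-0.87 to 0.17) and Camk2d 0.34 (-0.17 to 0.86), all with intervals that include 0. Among the 2 genes with the most UMIs in each list were Adarb2 (2409.7 and 2831 CPM), Grik2 (1149 and 1016 CPM), Cacng4 (940.2 and 829.5 CPM), Grik1 (498 and 444 CPM), Grip1 (448 and 476 CPM), Fyn (399 and 346 CPM) and Shisa9 (230.4 and 218 CPM). Cacng4, which encodes a transmembrane AMPA receptor regulatory protein, was at 71.2 and 77.2 CPM in glutamatergic and 35.6 and 37.4 CPM in GABAergic neurons, so precursors exceeded both. Cacng2 showed the opposite, with 9.34 and 9.83 CPM (3 and 5 UMIs) in precursors.

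For each subunit gene, the non-member genes with the highest Pearson correlation of log2(CPM + 1) over the 19 neuron clusters were found, using the mean of the libraries and 9250 genes. The clusters share their libraries and freed RNA, and the highest of many values is high by selection. They were Ptprr (r = 0.93) and Cftr (0.92) for Gria1, Otof (0.93) and Stx7 (0.92) for Gria2, Fam13a (0.89) and Ppip5k1 (0.85) for Gria3, and Mob1b (0.83) and Scamp2 (0.76) for Gria4. For NMDA genes they were Sptssb (0.89) and Wdr37 (0.88) for Grin1, Kcnn3 (0.82) and Ackr4 (0.82) for Grin2a, Fhdc1 (0.93) and Trio (0.93) for Grin2c, Pde9a (0.95) and 4930415C11Rik (0.93) for Grin2d, and Mterf2 (0.86) and Hmgxb3 (0.83) for Grin3a. Grin2b was closest to Gm14330 (0.99) and Gm14329 (0.99), which lie on the opposite strand within Grin2b, so that their reads cannot be told apart from its own without strand. Other rows that overlap members are Grin1os with Grin1, Gm26653 with Grin2b, Gm45441 and Kdelr1 with Grin2d, all on the opposite strand, and Ppp3r2 with Grin3a on the same strand.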

How the data were processed

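Nuclei of the thalamus were sequenced as 3′ single-nucleus libraries, 1 sham and 1 injury, each a pool of 4 mice. The authors deposited UMI counts per gene and barcode as unnormalized, whole-number matrices. The submitters' processing notes name bcl2fastq, Cell Ranger 6.0.2, Seurat 4.0 and GRCm38 (mm10), without saying what each did. The annotation release, the use of strand and the counting of introns were not given in the sources used here. Of the 32285 gene identifiers, 32235 were paired with a symbol through GENCODE M21.

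Barcodes with over 2% mitochondrial UMIs (9 sham, 30 injury), over 7500 genes (8 and 21) or under 200 genes (0 and 0) were removed. Libraries were integrated and clustered in Seurat 5.3.0 (R 4.3.3) on 1981 of 2000 variable genes, without the genes of the receptor lists, with 30 components at a resolution of 0.5 chosen here. Scrublet in scanpy 1.11.5 called 2221 and 3850 doublets at expected shares of 13.1% and 17.5%. They were kept, and clusters with over 50% of them were set apart as mixed, which held 5.44% of sham and 8.00% of injury nuclei. Classes were rebuilt from markers, and the thresholds that split neurons from other cells were set after seeing the data. A neuron cluster was compared with at least 50 nuclei in each library.

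UMIs were summed over the nuclei of a class or cluster and divided by its total. Intervals are exact (Poisson for CPM, Clopper-Pearson for shares and ratios, scipy 1.17.1). No test was run, since a group was 1 library, and the script was checked on simulated data. Named were all 10 members, from each partner list the 2 genes with the most UMIs, from the lists together up to 5 genes with the largest ratio past 0.25 in each main class, and the 2 genes most alike each member among those with at least 20 CPM in a cluster. Members and lists were chosen with earlier results of these data known. Alternatives covered TMM factors (edgeR 4.0.16), doublets, integration, finer clustering, single-nucleus means, thinning to 2000 UMIs, freed RNA, the nucleus filter, small clusters, equal cluster weights, gene length, the fold and the UMI minimum.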

Additional observations from a re-analysis of the deposited data

Results flagged for a closer look

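Neuron clusters N21, N23 and N26, with 380, 281 and 209 nuclei in the injury library and 2, 0 and 0 in sham, entered no comparison, and some subunit genes stood there above every compared cluster. Gria1 reached 3481 CPM in N21, 4021 CPM in N23 and 3501 CPM in N26, against a highest compared level of 3182 CPM. Gria2 reached 2177, 2085 and 2053.5 CPM in the same clusters, against 1876 CPM. Gria3 reached 928 CPM in N21 and 920.0 CPM in N23, against 859 CPM in sham and 826 CPM in injury. Grin2a reached 4061 CPM in N23 and 4506 CPM in N26, against 1820 CPM. N21 was GABAergic by its markers, and N23 and N26 were glutamatergic, N23 cortical-like. With these nuclei nearly or wholly absent from 1 library, the operation, the dissection and the pool cannot be told apart.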

How the results depend on the processing

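No paired analysis was possible because sham and injury were a single pool each. Results that answer a comparison stayed within their interval, or a count within 1.5 times, in 91 cases and moved further in 20. For single genes and classes 288 values stayed, 50 moved and 3 turned sign, counting a turn only where the main interval excluded 0. The cause of these shifts was not tested, beyond what an alternative sets by construction. The median ratio of AMPA genes in glutamatergic neurons (0.04) was 0.061 with single-nucleus means, 0.12 with small clusters included and 0.11 with clusters at equal weight, and that of NMDA genes (0.10) was 0.082 with nuclei thinned. In GABAergic neurons the AMPA median (0.06) was 0.22 with small clusters. The AMPA distance of GABAergic from glutamatergic neurons (6.70 points) was 8.75 with single-nucleus means, 8.62 thinned, 7.92 with freed RNA subtracted, 4.63 with small clusters, 14.3 at equal weight, 5.19 per gene length and 7.86 per exon length. The NMDA distance (13.07) was 17.8 with freed RNA subtracted, 15.5 at equal weight and 16.0 per exon length. For oligodendrocyte precursors the AMPA distance (19.1, mean of the libraries) was 14.3 per gene length and 23.9 per exon length, and the NMDA distance (64.4) was 84.5 with freed RNA subtracted and 45.7 per gene length. At a fold of 0.5, 2 subunit genes over the 3 main classes were past it in place of 7. Among values past the fold, the sign turned for Gria1 of precursors without called doublets (-0.065) and for Grin2b of precursors without integration (0.32). With freed RNA subtracted, Grin2b and the NMDA median of precursors had no value. Further alternatives were chosen after seeing the data: leaving out the astrocyte cluster of the injury library alone, and leaving out each neuron cluster in turn, in which the GABAergic AMPA median was -0.053 without N0 and 0.10 without N9. In 11 alternatives, Gria1 was past the fold in 7 and Grin2a in 10 in glutamatergic neurons, and in 6 and 7 in GABAergic neurons, all with ratios above 0. The sign of values near 0 also turned in 1 to 4 of the alternatives for Gria2 and Grin3a of glutamatergic neurons, Gria3, Grin2c and Grin3a of GABAergic neurons and Grin3a of precursors. Depth limits precursors, where Grin2a, Grin2c and Grin2d had under 50 UMIs, and microglia, where all subunit genes did.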
